A study of Homo sapiens with 12 samples.

Results

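AOC1, IL1RAP, CALCRL, ASIC1, PRSS35, ALPP, TMEM100 and UPK3B were measured in U251 cells, an established human glioblastoma line, with and without a hairpin against CD44. The 8 genes were chosen because their counts were far lower in cells with the CD44 hairpin, so their fall with that hairpin is a description here and was not tested. They are 8 of the 20289 genes in the count table, and all 8 were among the 12821 genes that passed the filter on low counts in a fit to all 12 libraries. Poly(A) RNA was sequenced from 4 groups of 3 libraries: control hairpin with DMSO, control hairpin with temozolomide, CD44 hairpin with DMSO and CD44 hairpin with temozolomide. The drug temozolomide, which methylates DNA and is standard in glioblastoma treatment, was used at 50 µM for 24 h, and DMSO is its solvent. The groups are called control DMSO, control temozolomide, knockdown DMSO and knockdown temozolomide. The titles of the control temozolomide libraries say NC where those of control DMSO say shCtrl. They were read as the same control hairpin, because the descriptions of both groups say NC and the genotype of both is given as WT. All of them share the U251 background and the same serum-containing medium, and the labels give neither the sequence nor the number of hairpins against CD44, so what is particular to a hairpin sequence and what follows from less CD44 cannot be told apart. The labels do not say that the 3 libraries of a group were separate cultures, so p-values here reflect only how far these libraries spread, which may be technical.

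The 8 genes do not form a single pathway, and most of their products sit at the cell surface or are secreted. AOC1 is a secreted amine oxidase that breaks down histamine and the polyamine putrescine. IL1RAP is the shared accessory chain that the interleukin-1, interleukin-33 and interleukin-36 receptors need to signal. CALCRL is a G-protein-coupled receptor that becomes a receptor for calcitonin gene-related peptide or adrenomedullin when paired with a receptor activity-modifying protein (RAMP). ASIC1 is a sodium channel opened by extracellular protons. PRSS35 belongs to the trypsin-like serine proteases and is thought to lack protease activity. ALPP is the placental alkaline phosphatase, held to the membrane by a lipid anchor. TMEM100 is a small transmembrane protein known as a target of bone morphogenetic protein signalling through the receptor ALK1 in endothelium. UPK3B is a uroplakin of the mesothelium and urothelium. CD44 itself is the surface receptor for hyaluronan, a long sugar polymer of the matrix around brain tumour cells.

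The library totals ran from 13506946 to 24757977 estimated counts, so that 3 counts correspond to 0.1203 to 0.2153 CPM, the count scaled to the size of its library. CD44 was 1043 to 1127 CPM in control DMSO, 419.1 to 420.9 in knockdown DMSO, 804.1 to 850.6 in control temozolomide and 319.8 to 333 in knockdown temozolomide, so its level followed the hairpin labels. Of 10 glioblastoma and astroglial markers, VIM and SOX2 were high, at 3380 and 390 CPM in control DMSO. SOX9 (125 CPM), SLC1A3 (44.3), NES (42.6) and FABP7 (16.9) were also expressed in that group. GFAP averaged 0.875 CPM there, S100B 0.169 CPM, and CHI3L1 had no count in that group. These 3 were thus near or at 0 in control DMSO, and GFAP averaged 1.27 CPM in knockdown DMSO. Only 2 of the 10 markers stayed below 1 CPM in every group.

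The genes lie on chromosomes 2, 3, 6, 7, 12 and 17, and no pair of them is adjacent. On GRCh38, with locations joined by gene ID, AOC1 (ENSG00000002726) spans chr7:150824627-150861504, IL1RAP (ENSG00000196083) chr3:190514051-190659750 and CALCRL (ENSG00000064989) chr2:187343129-187448460. ASIC1 (ENSG00000110881) spans chr12:50057548-50083611, PRSS35 (ENSG00000146250) chr6:83512538-83525704 and ALPP (ENSG00000163283) chr2:232378534-232382889. TMEM100 (ENSG00000166292) spans chr17:55719627-55732121 and UPK3B (ENSG00000243566) chr7:76510428-76516521. All 8 are annotated as protein-coding, CALCRL and TMEM100 on the minus strand and the others on the plus strand. Of the 25 tested genes within 200 kb of them, 3 fell, 6 rose and the rest did not pass the test with the CD44 hairpin under DMSO, with a median log2 fold change of 0.03, where 21.4% of all tested genes fell. Only ME1, next to PRSS35, was at least 2-fold lower, by a log2 change of -1.21 (edgeR quasi-likelihood test, Benjamini-Hochberg adjusted p = 0.0167), at a mean of 0.686 CPM. TFPI, the tested neighbour of CALCRL, rose by 1.12 (adjusted p = 2.95e-07) where CALCRL itself was lower. ME1 and TFPI were singled out after their values were seen.

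The promoters of members that moved together are shown to let a reader compare them. RefSeq, on GRCh38.p14, gave 9 promoter windows for 7 of the 8 genes, 3 of them for ASIC1, and TMEM100 was not among them. The 250 bases before each start were searched on both strands for TATAAA, the Sp1 GC box GGGCGG, the AP-1 motif TGANTCA, the TEAD motif GGAATG, the cyclic AMP element TGACGTCA and the E-box CACGTG. No match overlapped another. Only the GC box was found, in the windows of AOC1, IL1RAP, PRSS35 and UPK3B and in 2 of the 3 of ASIC1. It stands in 42.6% of all 35116 promoters of the same length, against 10.7% for TATAAA, 6.57% for TGANTCA, 11.9% for GGAATG, 1.65% for TGACGTCA and 6.34% for CACGTG. None of the 6 motifs stood in the windows of CALCRL and ALPP. Below are the stretches of 4 windows that overlap no annotated exon and hold the GC box, in capitals on either strand (CCGCCC is its reverse complement), and the same part of the CALCRL window, which holds none. The stretches of AOC1 and ASIC1 lie inside the annotated span of their genes, whose outermost start is further upstream, and those of IL1RAP, PRSS35 and CALCRL lie outside it. The bases just after the start stood whole in an annotated transcript for IL1RAP and CALCRL. They did not for AOC1, PRSS35 and ASIC1.
AOC1 (chr7:150852267-150852476, plus strand): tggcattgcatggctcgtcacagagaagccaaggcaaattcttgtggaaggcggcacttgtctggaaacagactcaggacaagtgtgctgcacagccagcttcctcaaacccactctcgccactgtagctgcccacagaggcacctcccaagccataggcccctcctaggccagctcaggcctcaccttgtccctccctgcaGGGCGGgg
IL1RAP (chr3:190513835-190514050, plus strand): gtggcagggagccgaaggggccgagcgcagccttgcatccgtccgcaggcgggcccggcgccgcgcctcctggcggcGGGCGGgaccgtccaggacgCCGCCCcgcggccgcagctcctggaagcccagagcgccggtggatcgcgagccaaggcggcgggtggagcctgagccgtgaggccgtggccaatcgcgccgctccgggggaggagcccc
PRSS35 (chr6:83512284-83512533, plus strand): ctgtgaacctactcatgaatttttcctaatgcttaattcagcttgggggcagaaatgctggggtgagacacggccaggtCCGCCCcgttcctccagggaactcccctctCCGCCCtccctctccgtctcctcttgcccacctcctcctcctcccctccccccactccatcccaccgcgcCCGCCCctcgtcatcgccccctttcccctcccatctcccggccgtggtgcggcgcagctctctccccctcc
ASIC1 (chr12:50057920-50058169, plus strand): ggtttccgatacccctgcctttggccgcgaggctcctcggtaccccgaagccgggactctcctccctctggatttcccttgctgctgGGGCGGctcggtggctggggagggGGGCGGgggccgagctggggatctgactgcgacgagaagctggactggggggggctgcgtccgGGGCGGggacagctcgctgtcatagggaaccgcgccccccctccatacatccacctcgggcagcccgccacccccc
CALCRL (chr2:187448461-187448502, minus strand): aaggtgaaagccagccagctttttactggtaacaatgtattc
The windows differ in base composition as well: 79.2% of the IL1RAP stretch is G or C, against 65.2% for PRSS35, 71.6% for ASIC1 and 40.5% for the CALCRL stretch. No motif was shared by all of the genes.

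Per transcript length, in FPKM (fragments divided by the length of the transcript and by the total of the library), AOC1 had the highest level of the 8 in control DMSO, at 60.21 ± 4.3 FPKM (mean ± SD, n = 3 here and below). PRSS35 followed at 42.71 ± 3.28, IL1RAP at 38.85 ± 0.595 and CALCRL at 36.73 ± 1.08 FPKM, and the values of PRSS35 and IL1RAP overlapped between libraries. ASIC1 stood lower, at 21.31 ± 0.981 FPKM. UPK3B (4.643 ± 0.214), TMEM100 (2.933 ± 0.267) and ALPP (2.587 ± 0.126 FPKM) formed a low group. In knockdown DMSO the order changed at the top: IL1RAP was highest at 21.17 ± 0.337 FPKM, followed by PRSS35 at 14.48 ± 0.0902 and AOC1 at 13.87 ± 0.18. The 3 low genes remained lowest, with ALPP at 0.48 ± 0.0608 FPKM.

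The amine oxidase AOC1 had 148, 162.6 and 171.5 CPM in the 3 control DMSO libraries and 36.02, 35.65 and 36.35 CPM in knockdown DMSO. With temozolomide it had 112.1, 112.1 and 113 CPM in control cells and 26.4, 28.29 and 25.91 CPM in knockdown cells. The 4 groups did not overlap, and each temozolomide group lay below its DMSO group. The CD44 hairpin left 22.4% of the control level under DMSO, a log2 fold change of -2.16 (SE 0.05), and 24.01% under temozolomide (-2.06, SE 0.05).

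The receptor chain IL1RAP had 140.9, 142.1 and 141.2 CPM in control DMSO and 55.59, 55.37 and 58.46 CPM in knockdown DMSO. With temozolomide the values were 119.2, 122.5 and 125.4 CPM in control cells and 44.78, 42 and 43.14 CPM in knockdown cells. Again no group overlapped another. IL1RAP was the least reduced of the 8 under DMSO, with 39.99% of the control count left (log2 fold change -1.32, SE 0.04), and 35.38% was left under temozolomide (-1.50, SE 0.04).

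IL1RAP also differed between groups in the transcript length that its count and FPKM imply together. That length was 3522, 3558 and 3446 bases for the control DMSO libraries, against 2624, 2617 and 2695 bases for knockdown DMSO. With temozolomide it was 3556, 3679 and 3248 bases in control cells, against 2739, 2852 and 2880 bases in knockdown cells. The knockdown libraries thus lay below the control libraries under both treatments, at 75.4% and 80.8% of the control mean. Of 10756 genes with at least 1 FPKM and 20 counts in every library, 24 (0.223%) were shorter by at least as much under DMSO and 5 under both treatments, IL1RAP included, and the median over all of them was 100%. Where it could be computed, the length of the other members stayed at 93.2% to 103% of the control mean, and CD44 itself moved the other way, to 122% under DMSO. The change of IL1RAP was smaller on the FPKM scale than in counts: on log2(FPKM + 1) its change under DMSO was -0.85. Which of its transcripts were read was not measured here, and the length comes from the authors' estimate, so it was described and not tested.

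**Figure D1:**
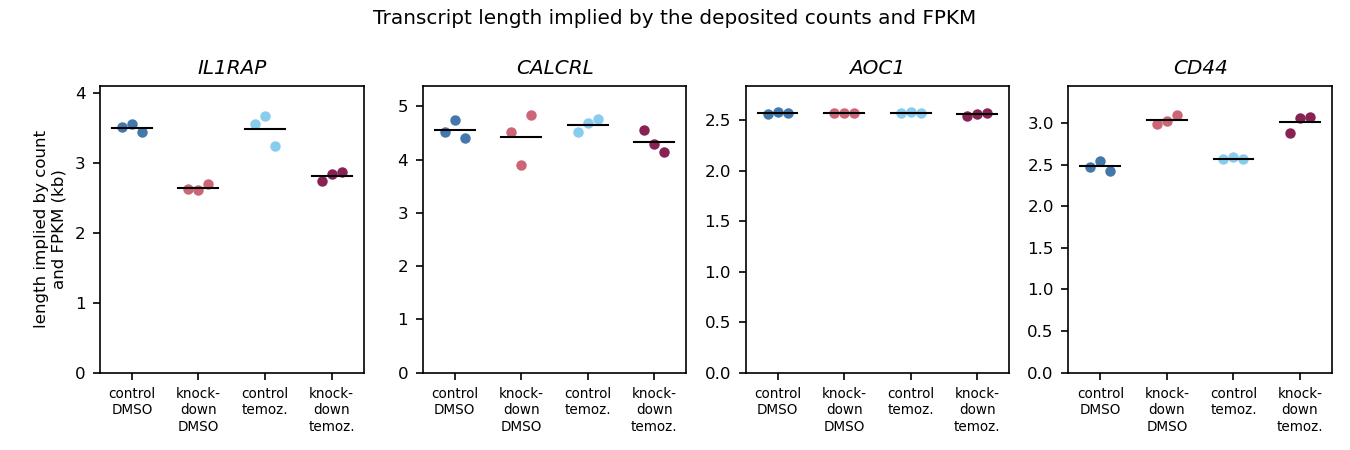
Transcript length (kb) implied by the deposited count and FPKM of IL1RAP, CALCRL, AOC1 and CD44 in each library; points are libraries and lines group means, n = 3. IL1RAP lay at 2624 to 2695 bases in knockdown DMSO against 3446 to 3558 in control DMSO, while AOC1 had means between 2562 and 2578 bases in the 4 groups and CD44 was longer with its hairpin.

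The receptor CALCRL had 177.2, 180.8 and 163.4 CPM in control DMSO and 57.05, 58.2 and 55.06 CPM in knockdown DMSO. With temozolomide it had 140.5, 158.6 and 158.5 CPM in control cells and 35.92, 42.81 and 39.26 CPM in knockdown cells. Control and knockdown libraries lay far apart under both treatments, with 32.66% of the control level left under DMSO (log2 fold change -1.61, SE 0.06) and 25.95% under temozolomide (-1.95, SE 0.06). The lowest control temozolomide library, 140.5 CPM, was the deepest of all.

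The proton-gated channel ASIC1 had 81.39, 88.15 and 86 CPM in control DMSO and 29.82, 29.01 and 30.15 CPM in knockdown DMSO. With temozolomide it had 58.29, 59.4 and 57.43 CPM in control cells and 23.29, 23.7 and 22.9 CPM in knockdown cells. No group overlapped another, and libraries within a group lay close together. The CD44 hairpin left 34.84% under DMSO (log2 fold change -1.52, SE 0.05) and 39.98% under temozolomide (-1.32, SE 0.05).

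PRSS35, the protease-like secreted protein, had 98.57, 113.5 and 113 CPM in control DMSO and 35.42, 36.01 and 35.64 CPM in knockdown DMSO. With temozolomide it had 89.92, 103.9 and 102.4 CPM in control cells and 21.25, 25.28 and 21.17 CPM in knockdown cells. The control groups of the 2 treatments overlapped, whereas the knockdown groups did not. Of the control level, 32.93% was left under DMSO (log2 fold change -1.60, SE 0.07) and 23.15% under temozolomide (-2.11, SE 0.07).

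The 3 genes of low level rest on few counts. ALPP had 7.041, 7.363 and 7.754 CPM in control DMSO and 1.265, 1.536 and 1.22 CPM in knockdown DMSO, and 4.25, 3.569 and 3.805 against 0.479, 0.7645 and 0.4306 CPM with temozolomide. None of the 4 groups overlapped another. Its estimated counts ran from 131.97 in a control DMSO library to 6 in a knockdown temozolomide library, and were fractional in 7 of 12 libraries. It was the most reduced of the 8, to 18.16% under DMSO (log2 fold change -2.46, SE 0.19) and 15% under temozolomide (-2.74, SE 0.23). The near-identical ALPG was assigned at most 4.09 counts, and the related ALPL and ALPI at most 2 and 0. How many reads fit both ALPP and ALPG was not measured, so the assignment between these copies is uncertain.

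TMEM100 had 5.001, 5.638 and 5.111 CPM in control DMSO and 1.797, 1.598 and 1.068 CPM in knockdown DMSO. With temozolomide it had 2.686, 3.811 and 2.986 CPM in control cells and 0.5987, 0.8123 and 0.8613 CPM in knockdown cells, where 10 to 17 counts stand behind each value. No group overlapped another. The levels left with the CD44 hairpin were 27.99% under DMSO (log2 fold change -1.84, SE 0.22) and 24.34% under temozolomide (-2.04, SE 0.26).

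UPK3B, the uroplakin, had 8.883, 8.159 and 9.223 CPM in control DMSO and 2.729, 2.274 and 2.796 CPM in knockdown DMSO. With temozolomide it had 5.693, 4.839 and 4.918 CPM in control cells and 2.574, 2.437 and 1.148 CPM in knockdown cells. The third knockdown temozolomide library, with 16 counts, stood below the other two, which overlapped the knockdown DMSO values. The levels left were 29.8% under DMSO (log2 fold change -1.75, SE 0.18) and 40.82% under temozolomide (-1.29, SE 0.20).

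**Figure D2:**
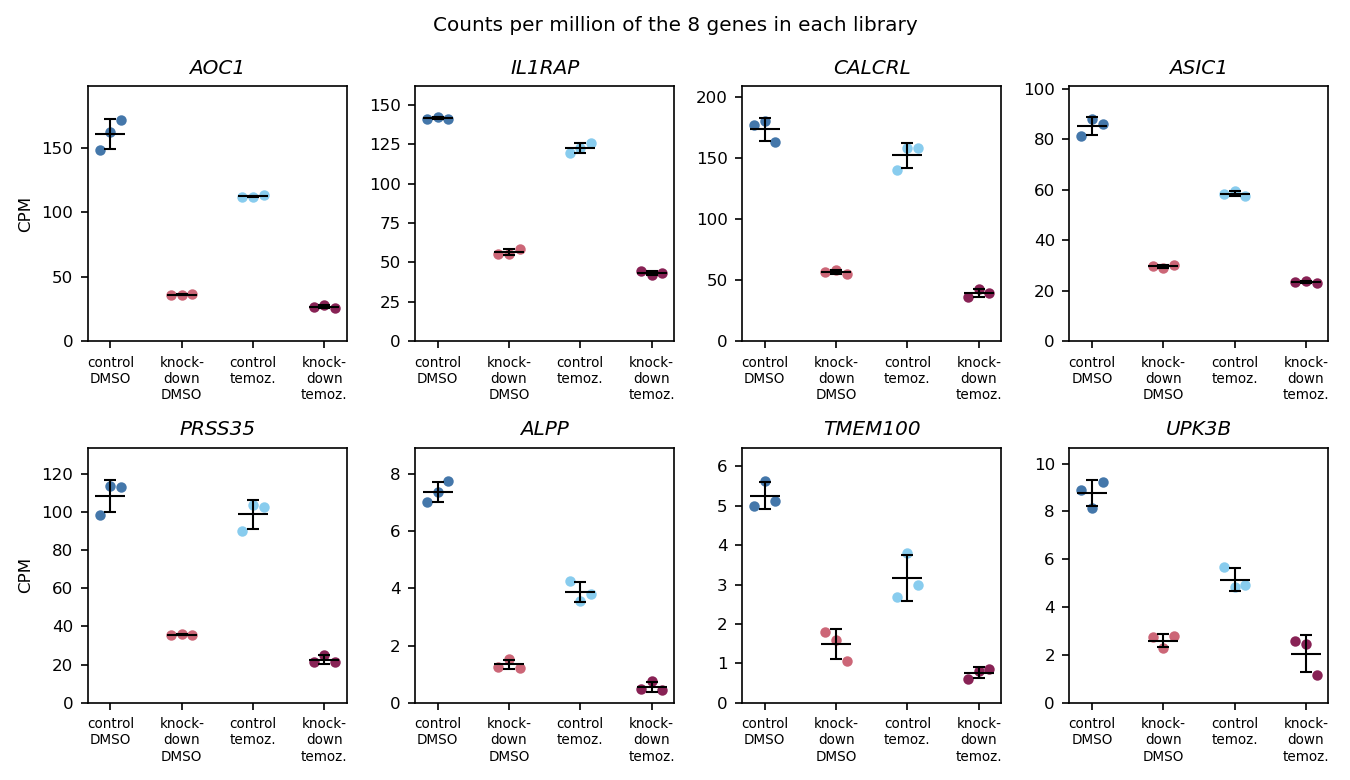
CPM of the 8 genes in each of the 12 libraries; points are libraries, horizontal lines group means and bars the SD, n = 3 per group. Every knockdown library lies below every control library of the same treatment for each gene, and AOC1 lies at 148 to 171.5 CPM in control DMSO and 35.65 to 36.35 CPM in knockdown DMSO.

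Across the table, 42.6% of tested genes passed the edgeR test for the knockdown under DMSO (21.4% lower) and 42.3% for the knockdown under temozolomide (20.3% lower), with 25.5% and 24.4% of genes lower without overlap of the groups. The members were chosen on this contrast, so their lack of overlap in all 8 cases says nothing further. Scaling by library totals alone moved the split under DMSO from 2710 higher and 2748 lower genes to 3387 and 2167. Among the 10823 tested genes with at least 5 CPM in their highest group, ALPP, AOC1, TMEM100 and UPK3B ranked 1 to 4 for the fall under DMSO, CALCRL 7, PRSS35 8, ASIC1 11 and IL1RAP 24. Under temozolomide ALPP ranked 2, PRSS35 3, AOC1 4, TMEM100 5, CALCRL 8, IL1RAP 20, ASIC1 30 and UPK3B 31. The choice rested on the fall with the hairpin, so neither set of ranks is independent of it. All tested genes counted, 65 were at least as low as IL1RAP under DMSO, 74 at least as low as UPK3B under temozolomide, and 24 met both bounds. The 8 are thus a choice from a longer list: 80 genes were at least 2-fold lower under both treatments.

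**Figure D3:**
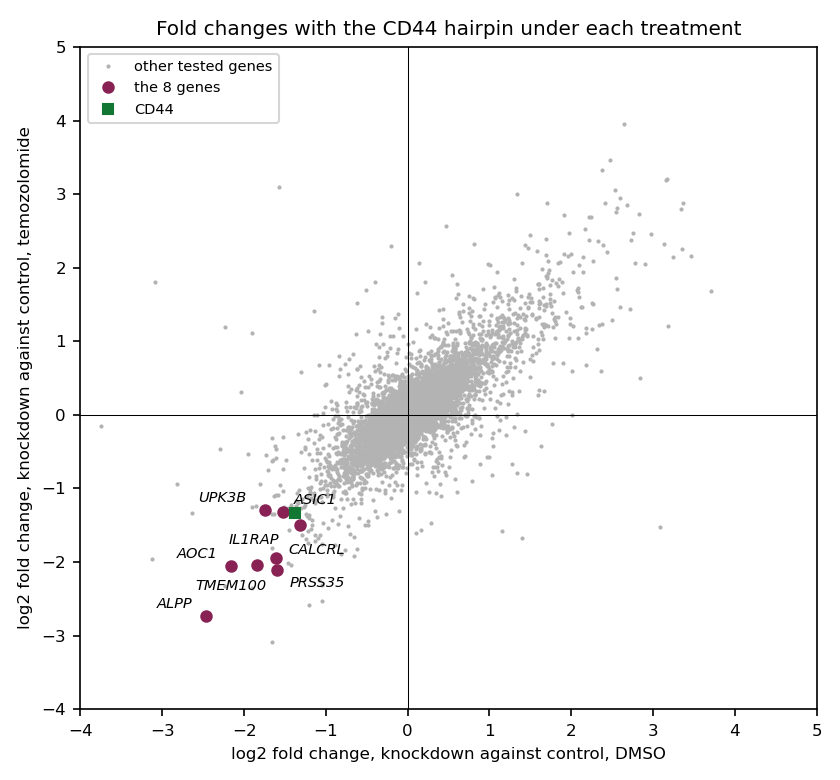
Log2 fold change with the CD44 hairpin under DMSO (horizontal) and temozolomide (vertical) for each tested gene; the 8 genes and CD44 are marked, and 14 tested genes lie outside the axes. The 8 genes lie between -1.32 and -2.46 under DMSO and between -1.29 and -2.74 under temozolomide.

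The genes next in size give the surroundings of the set. The 5 other genes with the lowest fold change under DMSO and at least 5 CPM were C1orf116 (-1.66), FOLR1 (-1.65), MUC5B (-1.58), NXF2B (-1.55) and PCOLCE (-1.51). Under temozolomide C1orf116 had -0.62, FOLR1, the folate receptor, -1.81, the mucin MUC5B -1.09 and PCOLCE, an enhancer of procollagen processing, -1.25. NXF2B is uncertain, since estimated counts stood with either it or the near-identical NXF2 depending on the library. Scaled by library totals alone, the sum of both was 14.7 ± 1.84 CPM in control DMSO and 13.4 ± 0.798 CPM in knockdown DMSO.

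Temozolomide alone was the comparison that did not serve to choose the genes, although it shares the DMSO libraries with the one that did. In control cells, 7 of the 8 genes fell and PRSS35 did not pass the test (edgeR quasi-likelihood test, Benjamini-Hochberg adjusted p below 0.05), against 15.8% of all tested genes that fell, 11.7% that rose and 27.5% that changed in either direction. The median log2 fold change of the 8 was -0.531, and that of all tested genes was -0.004. The split of all genes depended on scaling, with 1505 higher and 2024 lower genes in the reported fit and 2870 and 1295 with library totals as the only scaling, and 6 of the 8 passed in that case.

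ALPP fell most in control cells, to 52.79% of its DMSO level (log2 fold change -0.92, SE 0.16, adjusted p = 0.000182 by edgeR). UPK3B fell by 0.76 (SE 0.16, adjusted p = 0.00149) and TMEM100 by 0.74 on the log2 scale (SE 0.19, adjusted p = 0.0063). The more abundant ASIC1 fell to 68.51% (-0.55, SE 0.04, adjusted p = 9.17e-09) and AOC1 to 69.89% (-0.52, SE 0.04, adjusted p = 3.6e-08). IL1RAP and CALCRL fell less, by 0.21 (SE 0.04, adjusted p = 0.000227) and 0.19 (SE 0.05, adjusted p = 0.00924). With limma on FPKM, IL1RAP lost its call in all 3 fits (log2 fold change -0.13, adjusted p from 0.121 to 0.167), as did CALCRL (-0.15, from 0.255 to 0.368), and UPK3B did in the fit to log2(FPKM + 0.1) (-0.62, adjusted p = 0.0523). In CALCRL the adjusted p rose to 0.0715 (log2 fold change -0.13) without the first control temozolomide library and to 0.0751 with library totals alone. The value of PRSS35 was -0.14 (SE 0.06, adjusted p = 0.0925), with overlapping groups, and it passed at 0.0265 (-0.20) without the first control DMSO library, at 0.0438 with no low-count filter and at 0.0304 with a replicate block. For 7 of the 8 genes every control temozolomide library lay below every control DMSO library, as for 21.6% of all tested genes.

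The same treatment in knockdown cells again lowered 7 of the 8 genes, here all but UPK3B, against 13.2% of all tested genes that fell, 9.05% that rose and 22.3% that changed (edgeR, adjusted p below 0.05). The median of the 8 was -0.47, and that of all tested genes was 0.005. By library totals alone the split of all genes moved from 1160 higher and 1694 lower to 2533 and 1078, with 7 of the 8 still past the threshold. ALPP fell to 43.6% (log2 fold change -1.20, SE 0.28, adjusted p = 0.00384), and TMEM100 to 51.91% (-0.95, SE 0.29, adjusted p = 0.0232). PRSS35 fell to 63.79% (-0.65, SE 0.08, adjusted p = 6.78e-06) and CALCRL to 69.63% (-0.52, SE 0.07, adjusted p = 7.29e-06). AOC1 (-0.42, SE 0.06, adjusted p = 5.2e-05), IL1RAP (-0.39, SE 0.04, adjusted p = 2.14e-06) and ASIC1 (-0.35, SE 0.06, adjusted p = 0.000106) fell by less.

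Of these results in knockdown cells, those of the low genes were the least firm. UPK3B had -0.30 (SE 0.22, edgeR adjusted p = 0.36), with a 95% interval from -0.81 to 0.21, and -0.06 (adjusted p = 0.87) without the third knockdown temozolomide library. The fall of TMEM100 lost its call without the first or the second knockdown DMSO library (adjusted p = 0.0971 and 0.0705) and without the first or the second knockdown temozolomide library (0.0866 and 0.0517), at log2 changes between -0.79 and -1.01. It was also lost with limma on log2(FPKM + 1), at -0.35 (adjusted p = 0.0538, or 0.0689 with no filter). AOC1, IL1RAP, CALCRL, ASIC1, PRSS35, ALPP and TMEM100 had all 3 knockdown temozolomide libraries below all knockdown DMSO libraries, as had 19.8% of all tested genes.

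Whether the response to temozolomide differed between the hairpins was tested directly. Only PRSS35 passed, with a difference of -0.51 on the log2 scale in knockdown cells (SE 0.10, 95% interval -0.75 to -0.27, edgeR adjusted p = 0.0236), where 1.05% of all tested genes passed this test, 0.616% as lower and 0.437% as higher. The call was lost without any 1 of 6 libraries: the first control DMSO (adjusted p = 0.0543), the first and the third knockdown DMSO (0.061 and 0.0533), the second and the third control temozolomide (0.0772 and 0.0753) and the first knockdown temozolomide (0.0573), with log2 differences of -0.46 to -0.52. It was lost as well in the 3 limma fits to FPKM, at -0.49 to -0.53 (adjusted p from 0.124 to 0.185). CALCRL came next, at -0.33 (SE 0.08, interval -0.53 to -0.14, adjusted p = 0.0559), and passed without the second control DMSO library (0.0336), the first control temozolomide library (0.0172) or the second knockdown temozolomide library (0.0378). IL1RAP had -0.18 (interval -0.31 to -0.04, adjusted p = 0.118) and ASIC1 had 0.20 (interval 0.04 to 0.36, adjusted p = 0.142). For AOC1 the interval ran from -0.08 to 0.28. The intervals of the low genes were wide: -1.01 to 0.46 for ALPP, -0.996 to 0.593 for TMEM100 and -0.18 to 1.09 for UPK3B. Differences within these ranges are compatible with the data, and no limit of detection was computed.

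**Figure D4:**
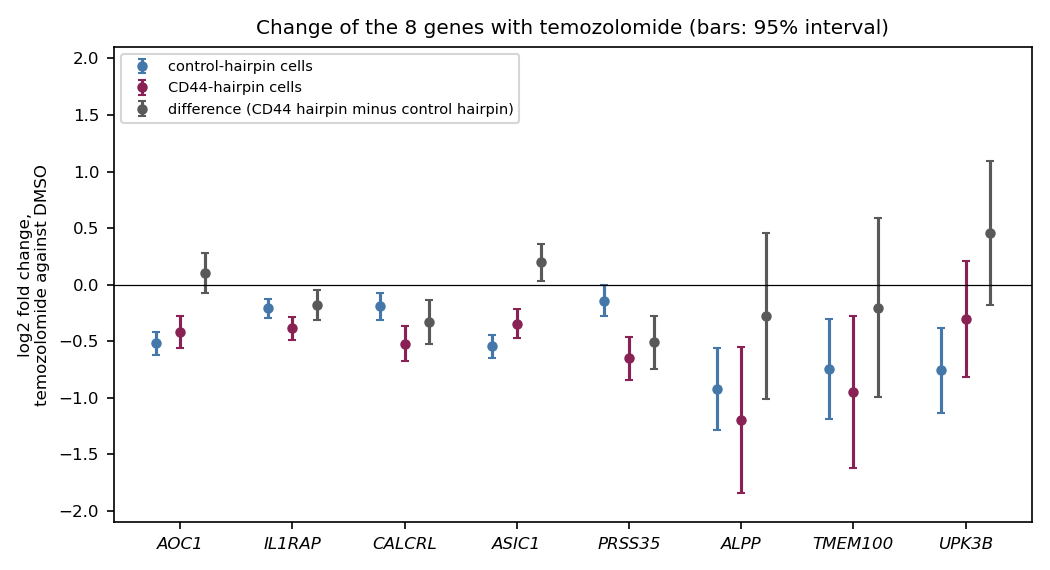
Log2 fold change with temozolomide in control-hairpin cells, in CD44-hairpin cells, and the difference between them, for the 8 genes; points are edgeR estimates over 3 libraries per group and bars 95% intervals not adjusted for the number of genes. The bars use 8 residual degrees of freedom and are wider than the edgeR test implies. The estimates of each gene in both kinds of cell lie below 0. The bar of UPK3B in CD44-hairpin cells crosses 0, and that of PRSS35 in control-hairpin cells ends at about 0. Of the differences only that of PRSS35 (-0.51) passed after adjustment over all genes.

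With both changes present, the level left of control DMSO was 7.555% for ALPP, 14.43% for TMEM100, 16.72% for AOC1, 20.82% for PRSS35, 22.63% for CALCRL, 23.45% for UPK3B, 27.35% for ASIC1 and 30.63% for IL1RAP. These shares are ratios of group means and carry no test. CD44 itself stood at 29.92%. In each gene the lowest group was knockdown temozolomide and the highest was control DMSO.

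Base composition moved with the change in several comparisons. Among all tested genes with a GC value, the median log2 fold change was compared between transcripts under 40% and those above 60% G and C. For temozolomide in control cells it ran from 0.1 to -0.106. For the knockdown under DMSO it ran from 0.079 to -0.12, and for the difference between temozolomide responses from -0.104 to 0.145. It ran only from -0.006 to 0.039 for temozolomide in knockdown cells, and from -0.022 to 0.027 for the knockdown under temozolomide. AOC1 (59.74%), ASIC1 (58.28%), ALPP (61.63%) and UPK3B (63.93%) are rich in G and C, whereas CALCRL (33.93%), IL1RAP (41.71%), PRSS35 (42.83%) and TMEM100 (44.24%) are not. After a correction for GC content, added after the data were seen, all 8 genes passed in control cells and 7 in knockdown cells (edgeR). By that fit 24.4% of tested genes with a GC value changed in control cells (13.7% lower) and 25.6% in knockdown cells (12.9% lower). In control cells CALCRL then had -0.33 (edgeR adjusted p = 4.72e-06) and AOC1 -0.42 (adjusted p = 3.17e-07). The difference for CALCRL was then -0.17 (adjusted p = 0.368) and that for PRSS35 -0.45 (adjusted p = 0.0434).

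The genes known to act around each of the 8 were counted in 8 lists. The shares of all tested genes to read beside these counts are 21.1% higher and 21.4% lower for the knockdown under DMSO, 11.7% and 15.8% for temozolomide in control cells, and 9.05% and 13.2% for temozolomide in knockdown cells. Of 22 tested polyamine and histamine genes around AOC1, 8 rose, 2 fell and 12 did not pass the test with the CD44 hairpin under DMSO (edgeR, adjusted p below 0.05), with a median log2 fold change of 0.106 against -0.001 for all tested genes. The histamine receptor HRH1 rose by 0.955 (adjusted p = 1.47e-08) and the arginase ARG2 by 0.75 (adjusted p = 8.82e-05). ALDH7A1 fell by 0.36 (adjusted p = 2.01e-06) and the ornithine decarboxylase antizyme OAZ1 fell by 0.16 (adjusted p = 0.00916). The related amine oxidase AOC3 had -0.63 (adjusted p = 0.152) at 0.956 CPM. With temozolomide in control cells 3 of the 22 rose and 7 fell, and in knockdown cells 4 fell.

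Of 15 tested genes around IL1RAP, 4 rose and 2 fell with the CD44 hairpin under DMSO, with a median of 0.049. IL1A, an interleukin-1 ligand, rose by 3.18 on the log2 scale (edgeR adjusted p = 2.51e-06) from a low level, with a mean of 1.16 CPM over the libraries. The receptor-proximal kinase IRAK2 rose by 0.65 (adjusted p = 2.77e-05), while IRAK4 fell by 0.33 (adjusted p = 0.00112) and the inhibitory adaptor TOLLIP by 0.29 (adjusted p = 0.0167). The signalling receptor IL1R1, the partner of IL1RAP for interleukin-1, had -0.12 (adjusted p = 0.268). Temozolomide raised 1 and lowered 2 of the 15 in control cells, and raised 1 and lowered 1 in knockdown cells.

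Around CALCRL, 3 of 15 tested genes rose and 4 fell, with a median of -0.029. The RAMPs that CALCRL needs at the surface were scarce: RAMP1 averaged 0.416 CPM, RAMP2 0.0259 CPM, and RAMP3 had 0 counts in every library. In a single library 0 counts allow up to 0.1203 to 0.2153 CPM by counting error alone, and less over all libraries together. Its ligand adrenomedullin, ADM, fell by 0.55 (edgeR adjusted p = 0.000437), and the arrestin ARRB2, which binds activated receptors, fell by 0.52 (adjusted p = 3.33e-07). The peptidase MME rose by 0.49 (adjusted p = 0.000174) and the adenylyl cyclase ADCY9 by 0.28 (adjusted p = 0.00663). Temozolomide lowered 4 of the 15 in control cells and raised none of them, and it raised 1 and lowered 3 in knockdown cells.

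Among 10 tested acid-sensing and epithelial sodium channel genes, 3 rose and 2 fell with the CD44 hairpin under DMSO, with a median of 0.034. The epithelial channel subunit SCNN1A fell by 1.11 on the log2 scale (edgeR adjusted p = 8.77e-09) and the proton channel OTOP1 fell by 0.93 (adjusted p = 0.00164). The ubiquitin ligase NEDD4L, which removes such channels from the surface, rose by 0.29 (adjusted p = 0.000178), and the kinase SGK1 by 0.27 (adjusted p = 0.00965). ASIC3 had -0.32 (adjusted p = 0.545) at 1.07 CPM, and ASIC2 was at 0.0693 CPM, below the low-count filter. In each kind of cell temozolomide lowered 4 of the 10 and raised none.

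The trypsin-like proteases around PRSS35 had the lowest median of the 8 lists, -0.351, with 3 of 14 tested genes higher and 5 lower. The complement protease C1S rose by 1.53 (edgeR adjusted p = 1.55e-06) and the urokinase PLAU by 0.93 (adjusted p = 5.29e-11). HPN fell by 1.66 (adjusted p = 0.000695) and TMPRSS2 by 0.76 (adjusted p = 0.0132), both transmembrane proteases, at 1.1 and 1.82 CPM. PRSS23, the close relative of PRSS35, fell by 0.34 (adjusted p = 2.53e-08) at 609 CPM. With temozolomide 6 of the 14 fell in control cells and 6 in knockdown cells, and none rose.

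Around ALPP, 5 of 13 tested alkaline phosphatase and surface nucleotide hydrolase genes rose and 2 fell, with a median of 0.078. The ectonucleotidase NT5E, which forms adenosine, rose by 2.00 on the log2 scale (edgeR adjusted p = 3.12e-13), and ENPP1, which makes pyrophosphate, rose by 0.97 (adjusted p = 2.51e-10). The phosphate transporter SLC20A2 fell by 0.17 (adjusted p = 0.0408) and GPAA1, a subunit that attaches lipid anchors, by 0.15 (adjusted p = 0.0239). NT5E therefore went up with the hairpin where ALPP, another lipid-anchored surface phosphatase, was lower. In control cells temozolomide raised 5 and lowered 4 of the 13, and in knockdown cells it raised 2 and lowered none.

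Of 28 tested bone morphogenetic protein genes, 9 rose and 8 fell with the CD44 hairpin under DMSO, with a median of 0.07, where 42.6% of all tested genes changed in either direction. The antagonist NOG rose by 2.72 (edgeR adjusted p = 1.32e-05) at a mean of 1.05 CPM, and the antagonist FST by 0.74 (adjusted p = 0.00698). The target HEY2 fell by 0.77 (adjusted p = 0.00621) and the inhibitory SMAD6 by 0.70 (adjusted p = 0.000196). ACVRL1, which encodes ALK1, averaged 0.046 CPM and was not tested. Temozolomide raised 2 and lowered 6 of the 28 in control cells, and raised 1 and lowered 4 in knockdown cells.

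In the uroplakin and tetraspanin list, 3 of 10 tested genes rose and 3 fell, with a median of 0.056. The tetraspanins TSPAN13 and CD9 fell by 1.01 (edgeR adjusted p = 6.07e-12) and 0.47 (adjusted p = 3.76e-09), and CD82 rose by 0.73 (adjusted p = 5.71e-10). UPK3BL2 rose by 0.51 (adjusted p = 0.037) and UPK3BL1, near-identical to it, had 0.38 (adjusted p = 0.567), so both are uncertain. UPK1B, a uroplakin of the urothelium, averaged 0.021 CPM. Temozolomide raised 1 and lowered 4 of the 10 in control cells and lowered 3 in knockdown cells. Across the 8 lists, SRM, the spermidine synthase, was the only gene that passed the test of a difference between the 2 temozolomide responses (log2 difference 0.34, adjusted p = 0.0388), and it was named after its value was seen.

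The knockdown under temozolomide was counted in the same way from other libraries. In the order of the lists above, 9 of 22, 5 of 15, 5 of 15, 2 of 10, 2 of 14, 4 of 13, 9 of 28 and 4 of 10 tested genes rose, and 2, 1, 3, 2, 5, 0, 6 and 2 fell (edgeR, adjusted p below 0.05), where 22% of all tested genes rose and 20.3% fell. The proteases again had the lowest median, -0.256, against 0.008 for all tested genes. Each list held genes that rose, and 7 of the 8 held genes that fell. Among genes named above as lower under DMSO, ADM, TOLLIP, OAZ1, SLC20A2 and GPAA1 did not pass here (edgeR adjusted p from 0.125 to 0.969). ALDH7A1, IRAK4, ARRB2, SCNN1A, OTOP1, HPN, TMPRSS2, PRSS23 and SMAD6 passed as lower again.

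The summed levels of several marker lists of other cell types moved with the members, each through a few genes. The summed level of 10 urothelial and epithelial markers was 1480 to 1510 CPM in control DMSO, 999 to 1110 in knockdown DMSO, 1060 to 1110 in control temozolomide and 639 to 744 in knockdown temozolomide, carried by KRT5, KRT8, KRT18 and ELF3. EPCAM and CDH1, which define epithelium, averaged at most 0.144 and 0.0558 CPM in any group, and KRT20 had no count. The endothelial sum was 43.9 to 49.8, 35.6 to 37.7, 22.2 to 25.2 and 18.8 to 20.2 CPM in the same order, mostly CDH5 (means of 44.1, 27.7, 21.6 and 12.6 CPM), with 6 of 10 markers below 1 CPM in every group. Other endothelial markers had higher means in knockdown than in control DMSO: ROBO4 3.25 against 0.599, KDR 1.81 against 0.169, TEK 2.15 against 1.25, PECAM1 0.71 against 0.362 and CLDN5 0.388 against 0.147 CPM. The mesothelial sum, 62.2 to 66.4, 46.9 to 49.5, 43.4 to 50.9 and 34.5 to 41.4 CPM, was carried by MSLN, and the other 7 of 8 markers stayed below 1 CPM. Of 10 trophoblast markers 5 were at 0 in every library, and TFAP2C carried the sum of 67 to 80.8 CPM. The immune sum, mostly CD68, went the other way, from 15.9 to 17.6 CPM in control DMSO to 23.3 to 26.5 in knockdown DMSO, with 3 of 8 markers at 0. All libraries came from the U251 line, so these lists name genes read in that line and not cells of those types. In bulk RNA, fewer cells that express a gene and less RNA per cell cannot be told apart, and neither was tested.

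The 8 genes shared their pattern over the 12 libraries. Pearson's r of log2 CPM between pairs of them ran from 0.8926 (TMEM100 and UPK3B) to 0.996 (CALCRL and PRSS35). These values hold the hairpin difference that chose the genes, and after subtraction of the group means they ran from -0.629 to 0.759. The genes outside the set whose pattern was most like each member over the 12 libraries included CD44 itself for ASIC1 (r = 0.996), followed by FBN2 (0.9941) and MRAS (0.9928). RPS6KA2 and CRTAP were closest to AOC1 (both 0.9953), RAI14 to IL1RAP (0.9943), NREP to CALCRL (0.9937) and RAB28 to PRSS35 (0.9938). TRIM29 was closest to ALPP (0.9956), PGM1 to TMEM100 (0.9852) and STX10 to UPK3B (0.9806). These correlations are descriptions over 4 groups that share the same libraries.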

How the data were processed

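Estimated counts per gene, deposited by the authors, were rounded to whole numbers before the tests in edgeR 4.0.16 (R 4.3.3). Between 10.72% and 12% of the values per library were fractional. The deposited FPKM table, in which the authors scaled fragments to transcript length and library total, served for levels between genes and for alternatives. RSEM, StringTie 1.3.1, HISAT2, Bowtie2 2.2.8 and fastp 0.18.0 are the tools named, per the submitters' processing notes, which give no role for any. The authors' annotation and genome build were not given in the sources used here. Groups came from the labels' titles. Locations, GC content and neighbours came from GENCODE on GRCh38, joined by gene ID (20171 of 20289 IDs).

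Genes were kept by filterByExpr (12821), scaling was by TMM, and the 4 group means were fitted in a single quasi-likelihood model of 12 libraries. A gene passed at a Benjamini-Hochberg adjusted p below 0.05 over all tested genes. CPM are TMM-scaled. The implied length is the count divided by FPKM and library total. Libraries of a group differed beyond sampling noise, with a chi-square per degree of freedom of 2.039 to 5.433 over 12 pairs. Alternatives used DESeq2 1.42.0, limma 3.58.1 on log2(FPKM + 1) and log2(FPKM + 0.1), other scalings and filters, the replicate block and each library left out. The procedure was also run on simulated counts of a fixed spread. Changes were planted only in control temozolomide libraries and in genes above a minimum mean count. No outcome is given here, so the run lends no weight to the calls above. The library kit named in the labels does not mark strand. Annotated genes on the opposite strand overlap 2 members, ALPP and CALCRL, and none of them was among the tested genes. Reads from either strand cannot be told apart there.

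The members, the 8 pathway lists and the marker lists were chosen with earlier results of these data known. Beside the members and CD44, a rule named up to 2 genes per list and direction with the largest passing change under DMSO, listed family genes, the 5 other genes with the lowest change at 5 CPM or more, and the genes most correlated with each member.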

Additional observations from a re-analysis of the deposited data

Results flagged for a closer look

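In the reported fit, PRSS35 responded to temozolomide more in cells with the CD44 hairpin than in cells with the control hairpin. The difference between the responses was -0.509 on the log2 scale (edgeR quasi-likelihood test of the difference, Benjamini-Hochberg adjusted p = 0.0236). All 3 knockdown temozolomide libraries, at 21.17 to 25.28 CPM, lay below the knockdown DMSO libraries at 35.42 to 36.01 CPM, while the control groups overlapped at 89.92 to 103.9 and 98.57 to 113.5 CPM. PRSS35 was the only member that passed in the reported edgeR fit. CALCRL passed too with DESeq2, with no low-count filter and with the replicate block. The call of PRSS35 was lost when any 1 of 6 libraries was left out, at adjusted p between 0.0533 and 0.0772. It was lost as well in the 3 limma fits to FPKM, at adjusted p from 0.124 to 0.185.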

How the results depend on the processing

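Over the 17 alternatives run for each gene in each of the 4 comparisons of 2 groups, the 8 genes kept a negative change. Of 725 values under alternatives 648 kept their side of the threshold or moved by less than the spread between libraries, 24 lost and 10 gained a call, 5 changed sign and 38 others moved. Of the 8 genes, 7 passed for temozolomide in control cells, and 4 with limma on log2(FPKM + 0.1), where IL1RAP (-0.134), CALCRL (-0.151) and UPK3B (-0.623) lost their calls. Of all tested genes 15.8% were lower there in the reported fit (27.5% in either direction), and 8.09% in that limma fit (23.7%). IL1RAP and CALCRL also lost their calls in both limma fits to log2(FPKM + 1), as did TMEM100 in knockdown cells (-0.352). For the difference between responses, 1 passed, 2 with DESeq2, with no low-count filter and with the replicate block, and 0 with each of the 3 limma fits to FPKM and at adjusted p below 0.01. In those limma fits 3 or 4 of the 8 had an unadjusted p below 0.05. With each library left out in turn, 0 to 2 of the 8 passed, and 19 to 395 of all tested genes (0.147% to 3.05%). The difference changed sign for ALPP (0.277) and TMEM100 (0.136) with limma on log2(FPKM + 1), filtered or not, and for AOC1 (-0.011) with the GC correction, the only alternative chosen after seeing the data. The cause was not tested. The pseudocount shrinks fold changes of low genes: the change of ALPP with the CD44 hairpin under DMSO ranged from -2.566 to -1.277 over the settings. The residuals of 18 same-numbered pairs of libraries had weak correlations, from -0.077 to 0.136. Of 12 libraries, 6 were closest to their own number among 3 numbers. Whether the replicate numbers mark pairs was not tested. Under the replicate block PRSS35 also passed in control cells (adjusted p = 0.0304) and CALCRL in the difference (0.0366).

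Counts over all genes moved more. For the difference, 135 genes passed, 337 with DESeq2, 546 with no filter, 222 with the replicate block, 33 with the GC correction and 0 with the limma fits (1650 genes at an unadjusted p below 0.05 on log2(FPKM + 1)). With limma on log2(FPKM + 1), lower genes were 1735 against 2748 for the knockdown under DMSO, 937 against 2024 for temozolomide in control cells and 696 against 1694 in knockdown cells. Of 1456 list counts under alternatives, 210 differed by more than 1.5 times. Depth limits ALPP, TMEM100 and UPK3B most, with 6 to 17 counts in some libraries.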
